A study of Canis lupus familiaris with 14 samples.

Results

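A set of 61 genes lay near silence in the bone of all 7 dogs and reached a clear level in the osteosarcoma of at least 2 of them. The genes were chosen by their CPM in both tissues, which is a gene's reads divided by all reads of its library and scaled to 1000000 reads. A gene belonged to the set when it lay under 0.5 CPM in every bone and at 2 CPM or more, called on here, in at least 2 tumors. The set held 61 of the 30951 genes of the table, or 0.197%. Because the tumor and bone levels themselves chose the genes, their tumor levels are described below and not tested against bone.

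The samples came from 7 dogs, A to G, whose limb was amputated for osteosarcoma before any chemotherapy, and each dog gave 1 tumor and 1 bone (second phalanx, P2) library. Tumors A (Golden Retriever), C (Doberman Pinscher), E (Great Pyranees) and F (Golden Retriever) lay in the radius and tumor D (Greyhound) in the humerus, which makes 5 forelimb tumors. Tumor B (Rottweiler) lay in the femur and tumor G (Greyhound) in the tibia, which makes 2 hindlimb tumors. The labels give separate RNA extraction protocols for bone and for tumor, so the extraction and the tissue cannot be told apart, and each library holds the RNA of all cells of its piece of tissue. In such bulk samples fewer cells of a type and less RNA per cell cannot be told apart.

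Osteosarcoma is a malignant tumor of bone-forming mesenchymal cells that arises mainly in the long bones of the limbs and carries unusually disordered chromosomes. Cells of adult bone keep most lineage-foreign genes silent, and tumor cells can express genes that belong to embryonic patterning, to another organ or to another cell type. HOX genes are the classic patterning case, since these clustered transcription factors give limb and trunk segments their position in the embryo and the pattern is partly kept in adult connective tissue.

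The libraries held 22564544 to 34479429 reads in bone and 18650945 to 32887213 in tumor, so that 2 CPM stood for 37.3 to 65.8 reads in a tumor and 0.5 CPM for 11.3 to 17.2 reads in a bone. Tumors and bones held like numbers of genes at 2 CPM or more, 11777 to 13402 in tumors and 11747 to 13609 in bones. A single gene, ENSCAFG00000017018, took 29.5% of the reads of bone E, 26.3% of tumor E and 17.5% of tumor G, which lowers the CPM of every other gene there. Of the markers listed for bone cells, the 4 osteocyte genes (SOST, DMP1, MEPE and PHEX) summed to 274 to 4841 CPM in bone and to 2.64 to 562 CPM in tumor. The 7 osteoclast genes with a symbol, of 8 listed, summed to 4325 to 18971 CPM in bone and to 254 to 3120 CPM in 6 tumors, but to 26698 CPM in tumor D, and BGLAP, the only osteoblast marker of 6 with a symbol, ran from 239 to 1560 CPM in bone and from 27.6 to 359 in tumor. Replicates were separate dogs, and no pair of libraries held identical counts.

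The words silent and on both need a qualification from the counts. Only 8 of the 61 genes had 0 reads in all 7 bones, and 218 of the 427 bone values were 0 reads. The highest bone lay under 0.1 CPM for 16 genes and at 0.25 CPM or more for 26. In the tumors, expression was mostly low and held by a minority of the dogs. Of the 145 tumor values that were on, 94 (64.8%) lay under 5 CPM and their median was 3.57 CPM, whereas 14.5% of all gene values at 2 CPM or more in tumors lay under 5 CPM and the median of all was 22.3 CPM. A tumor reached 10 CPM for 17 genes and 20 CPM for 8.

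**Figure D1:**
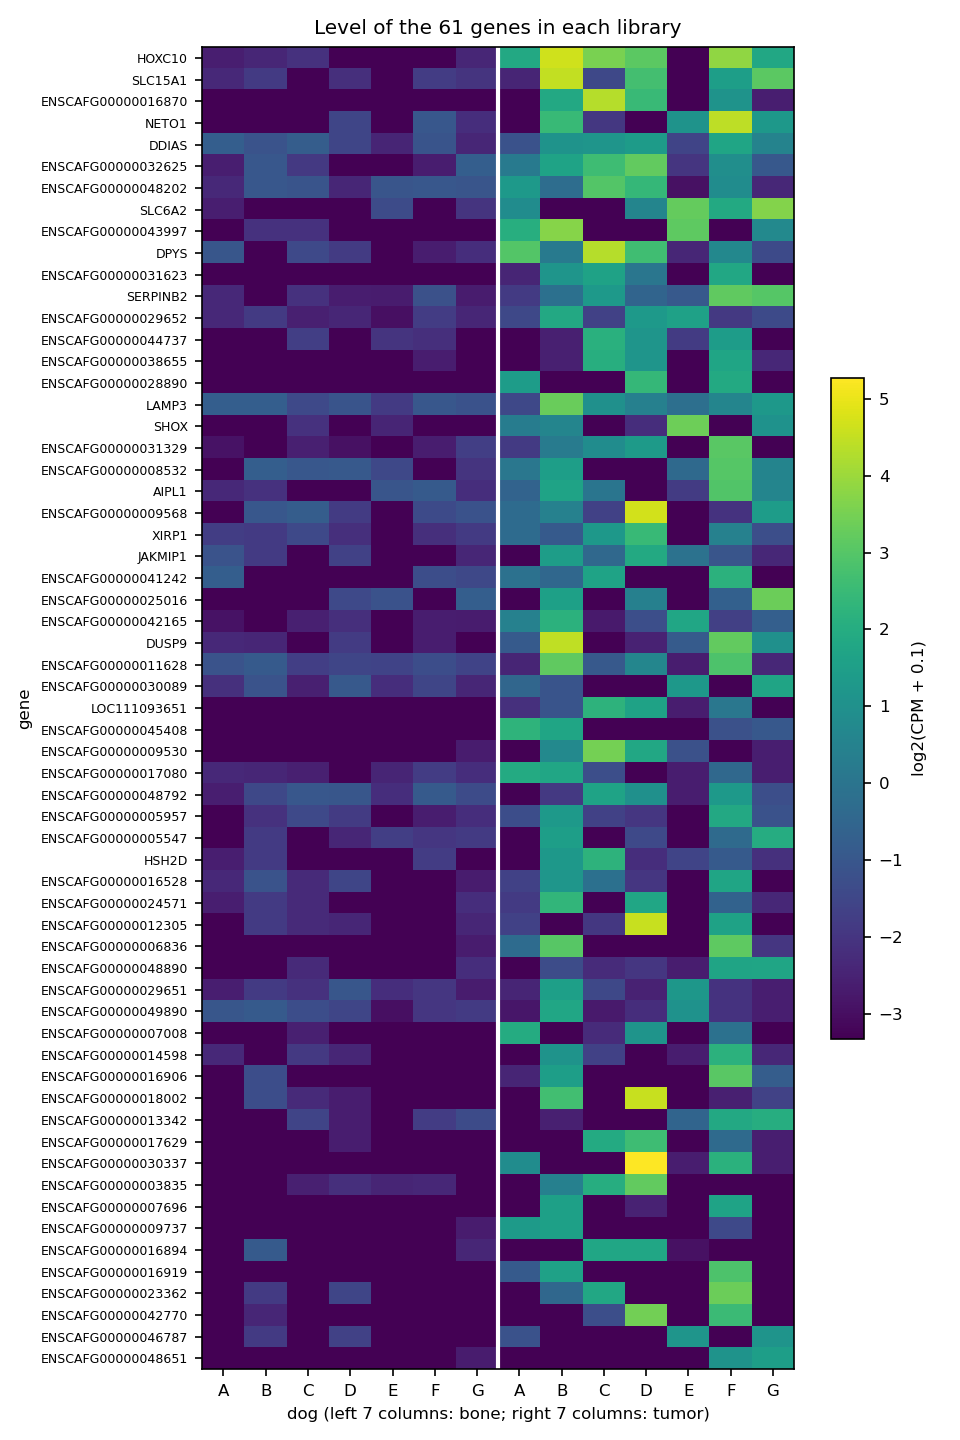
Level of each of the 61 genes (rows, ordered by the number of tumors at 2 CPM or more and then by the tumor median) in each library (columns, dogs A to G, bone on the left and tumor on the right), as log2(CPM + 0.1). Most rows are bright in 2 tumors, and HOXC10, at the top, is bright in every tumor but that of dog E.

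Most genes of the set were expressed by few tumors. No gene was on in 7 or in 5 tumors, 1 gene was on in 6, 4 genes were on in 4, 11 genes in 3 and 45 genes in exactly 2. Silence in the other tumors was common. The tumor median lay under 0.5 CPM for 38 genes, 51 genes lay under 0.5 CPM in 3 or more tumors, and 50 genes had 0 reads in at least 1 tumor. No gene had every tumor above every bone. The tumor lay above the bone of the same dog in all 7 dogs for 2 genes, in 6 dogs for 11, in 5 for 17, in 4 for 20, in 3 for 9 and in 2 for 2, and 39 genes had at least 1 tumor below its own bone.

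The 7 tumors also contributed unequally. Tumor B had 33 of the 61 genes on, tumor F 32, tumor D 26, tumor C 20, tumor G 15, tumor E 10 and tumor A 9. By the study's table the RNA integrity number was highest in tumor F, followed by B, then C and E with equal numbers, G, D and A. Tumors F and B, highest in integrity, had 32 and 33 genes on, and tumor A, lowest in integrity, had 9. Tumor D, second lowest, had 26, and C and E, with equal integrity, had 20 and 10. The part of RNA integrity in these counts was not tested. Tumors B and F alone covered most of the set, since 48 genes were on in at least 1 of them and 13 in neither. The summed level of the 61 genes was 229 CPM in tumor D, 204 in B, 202 in F, 134 in C, 83.5 in G, 51.1 in E and 51.0 in A, while the bones lay between 3.22 and 8.15 CPM, a gap that the choice of the genes fixes. Scaled by edgeR's TMM factors, an alternative chosen after seeing the data, the same 61 genes were on 11 times in tumor A, 28 in B, 17 in C, 21 in D, 10 in E, 30 in F and 17 in G.

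**Figure D2:**
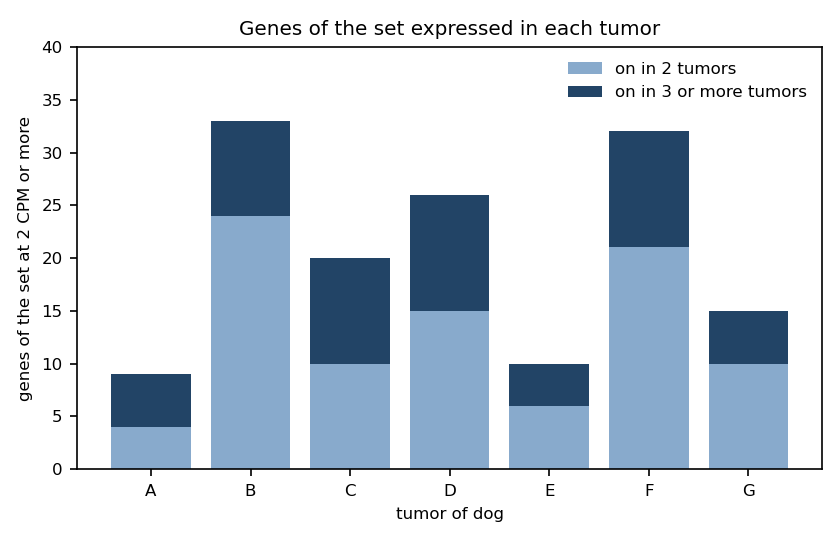
Number of the 61 genes at 2 CPM or more in the tumor of each dog (bars), divided into genes on in exactly 2 tumors (light) and in 3 or more tumors (dark). Tumors B and F reach 33 and 32 genes, and tumors A and E reach 9 and 10.

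HOXC10, a posterior HOX transcription factor with a known part in patterning the lower trunk and hindlimb, was the gene expressed by the most tumors. Its level was 25.2 CPM in tumor B, 14.2 in F, 11.5 in C, 8.48 in D, 3.57 in A and 3.49 in G, and tumor E had 0 reads. The bones ran from 0 to 0.136 CPM with a median of 0.0653, 3 reads or fewer in every bone but that of dog C, which had 4. Tumor E thus overlapped the bones and the other 6 tumors lay above all of them.

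HOXC10 was the only one of the 8 HOX genes with a symbol here that met the rule, and the others failed it in different ways. HOXC4, HOXC5 and HOXC6 lie in the same cluster and are more anterior members of it. HOXC4 ran from 0 to 2.49 CPM in bone and from 0.760 to 31.1 in tumor, with 4 tumors on. HOXC6 ran from 0 to 0.556 CPM in bone, just over the ceiling, and from 0.274 to 16.2 in tumor, with 5 tumors on. HOXC5 stayed at or under 0.263 CPM in bone but was on in a single tumor, D, at 3.89 CPM.

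Tumor D was the highest of the 7 for HOXC4, HOXC5 and HOXC6, whereas tumor B was the highest for HOXC10. Tumor E was the lowest of the 7 for each of these 4 genes. The HOXA genes were already on in bone: HOXA13, which patterns the distal limb, had a median of 8.34 CPM in bone (2.93 to 9.56) and of 1.31 CPM in tumor (0.118 to 2.82), and HOXA5 and HOXA7 were on in all 7 bones. HOXD3 was on in 6 tumors, as HOXC10 was, but also in 5 bones. It ran from 0.889 CPM (tumor G) to 20.2 (tumors B and C) in tumor and from 1.57 to 4.83 in bone.

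**Figure D3:**
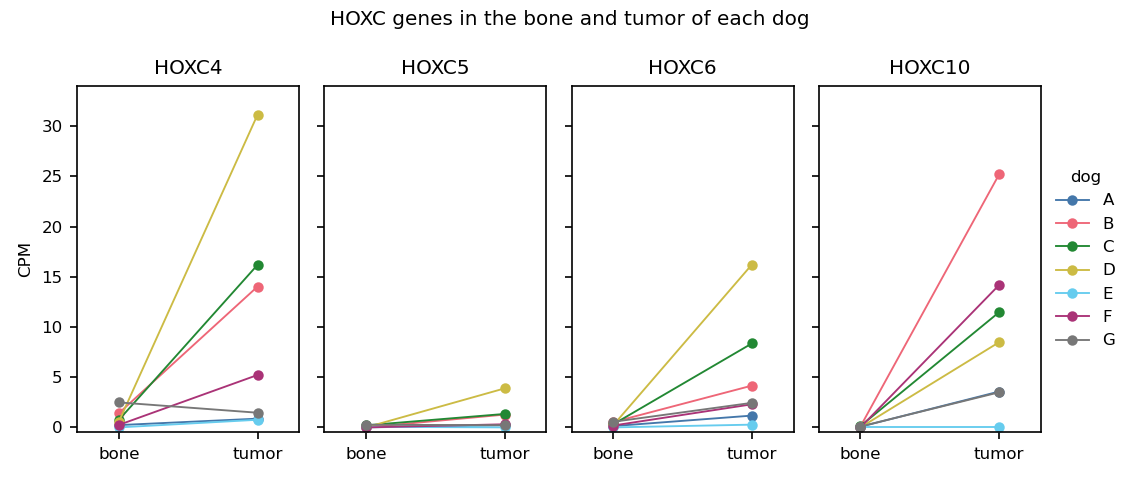
Level in CPM of HOXC4, HOXC5, HOXC6 and HOXC10 in the bone and tumor of each dog, with a line joining the samples of 1 dog. HOXC10 starts at or under 0.136 CPM in every bone and ends between 3.49 and 25.2 CPM in 6 tumors, while the line of dog E stays at 0.

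SHOX, a homeobox factor of the developing limb whose loss shortens the long bones, was the other homeobox gene of the set, 1 of 22 with a symbol outside the HOX clusters. It was high in 1 tumor, E, at 10.3 CPM, and stood at the floor in tumor G with 2.0 CPM. Tumors B (1.41 CPM) and A (1.13 CPM) lay above all bones (0 to 0.136 CPM), whereas tumors C and F had 0 reads and D had 0.118 CPM. Tumor E, the only tumor without HOXC10, was the highest for SHOX.

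Both transporters of the set, 2 of the 56 solute carriers and ABC transporters with a symbol, are known from tissues far from bone. SLC15A1, the proton-coupled peptide transporter of the intestinal brush border, was on in 4 tumors, at 22.1 CPM in B, 8.48 in G, 6.48 in D and 2.71 in F. The other 3 tumors lay at 0 to 0.268 CPM, within or near the bones (0 to 0.187 CPM). SLC6A2, the noradrenaline reuptake transporter of sympathetic neurons, was on in tumors G (12.6 CPM), E (9.46) and F (3.67). Tumors A (1.70 CPM) and D (1.41) lay between the thresholds, and tumors B and C had 0 reads against 0 to 0.290 CPM in bone. Tumor B was the highest for SLC15A1 and had no read of SLC6A2.

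NETO1, an auxiliary subunit of kainate-type glutamate receptors, was on in 4 tumors, with 21.2 CPM in tumor F, 5.50 in B, 2.32 in G and 2.04 in E. Tumors A and D had no NETO1 read, and the bones ran from 0 to 0.405 CPM. JAKMIP1, a microtubule-binding protein of brain and lymphoid cells, was on in tumors D (3.61 CPM) and B (2.68), and its tumor median of 0.643 CPM was close to the highest bone at 0.359.

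AIPL1, a chaperone partner needed by the photoreceptor phosphodiesterase, was on in tumors F (7.59 CPM) and B (3.09), with a tumor median of 0.911 CPM and 0 to 0.436 CPM in bone. With TMM scaling AIPL1 lay over the ceiling in bone E (13 reads) and no longer met the rule. Its neighbour in the RefSeq gene order (assembly UU_Cfam_GSD_1.0) is PIMREG, a gene of dividing cells chosen for mention after its values were seen. PIMREG was highest in the same pair of tumors, at 56.9 CPM in B and 41.0 in F, and ran from 1.67 to 5.58 CPM in bone. Whether reads of the neighbour reach the AIPL1 count was not tested.

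DDIAS, which protects cells with damaged DNA from apoptosis, was the flattest of the genes on in 4 tumors. It lay at 3.26 CPM in tumor F, 2.51 in D, 2.14 in C and 2.01 in B, all just over the floor, with 1.33 in G, 0.348 in A and 0.243 in E. The bones reached 0.490 CPM, just under the ceiling, so DDIAS entered the set by a small margin at both ends, and with TMM scaling it was on in 2 tumors instead of 4. The summed level of the 5 proliferation markers (MKI67, TOP2A, BUB1, CCNB1 and CDK1) was highest in the same 4 tumors, at 1050 CPM in F, 497 in C, 456 in B and 334 in D. It was 290 CPM in A, 253 in G, 98.9 in E and 26.3 to 72.3 in bone, and its part in the DDIAS level was not tested.

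Enzymes and signalling proteins gave some of the highest single values. DPYS, the dihydropyrimidinase of pyrimidine breakdown in liver and kidney, was on in tumors C (19.9 CPM), A (7.79) and D (6.09). It lay at 1.51 CPM in F and 1.04 in B, and tumors G (0.286) and E (0.0912) fell within the bone range of 0 to 0.392. Of the 6 epithelial markers only CDH1 and EPCAM had a symbol here, and their sum was highest in tumor C too, at 140 CPM (CDH1 at 139 and EPCAM at 0.804), against 0.412 to 17.1 in the other tumors and 16.7 to 44.2 in bone. Their part in the DPYS level was not tested. DUSP9, a phosphatase that inactivates ERK kinases, was on in tumors B (21.7 CPM) and F (9.10) and lay just under the floor in G (1.91). The remaining DUSP9 values were 0 in C, 0.0786 in D, 0.435 in A and 0.456 in E, against at most 0.184 CPM in bone.

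SERPINB2, the plasminogen activator inhibitor of monocytes and keratinocytes, was the set's 1 gene among 30 metalloproteinases, serine proteases and inhibitors with a symbol. It was on in tumors F (8.93 CPM), G (8.04) and C (2.36), and lay at 0.174 to 0.805 CPM in the other 4 against 0 to 0.342 in bone. XIRP1, an actin-binding protein of striated muscle, was 1 of 11 muscle genes with a symbol. It was on in tumors D (5.46 CPM) and C (2.31), and tumor E had 0 reads. With TMM scaling XIRP1 was on in 1 tumor and no longer met the rule, and the families were not counted again under that scaling. Of the 7 skeletal muscle markers only ACTA1 had a symbol here, and it was highest in tumor D at 266 CPM, followed by tumor A at 75.1 CPM. In tumor C it lay at 16.2 CPM, within the bone range of 0 to 23.5, and its part in the XIRP1 level was not tested.

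LAMP3, a lysosomal protein of mature dendritic cells, was on in tumors B (9.93 CPM) and G (2.32), and the other 5 tumors ran from 0.261 to 1.88 CPM. Its bones were not at 0 but between 0.174 and 0.490 CPM, and tumor A overlapped them. HSH2D, an adaptor of haematopoietic cells, was on in tumors C (4.61 CPM) and B (2.28) and at 0 to 0.446 in the other 5, and with TMM scaling it was on in 1 tumor and no longer met the rule. No T cell, NK cell or macrophage marker had a symbol here, so the level of those cells beside LAMP3 and HSH2D was not analysed. The last gene with a symbol, LOC111093651, listed by RefSeq as a long non-coding RNA, had 0 reads in all bones and was on in tumors C (4.66 CPM) and D (2.99).

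**Figure D4:**
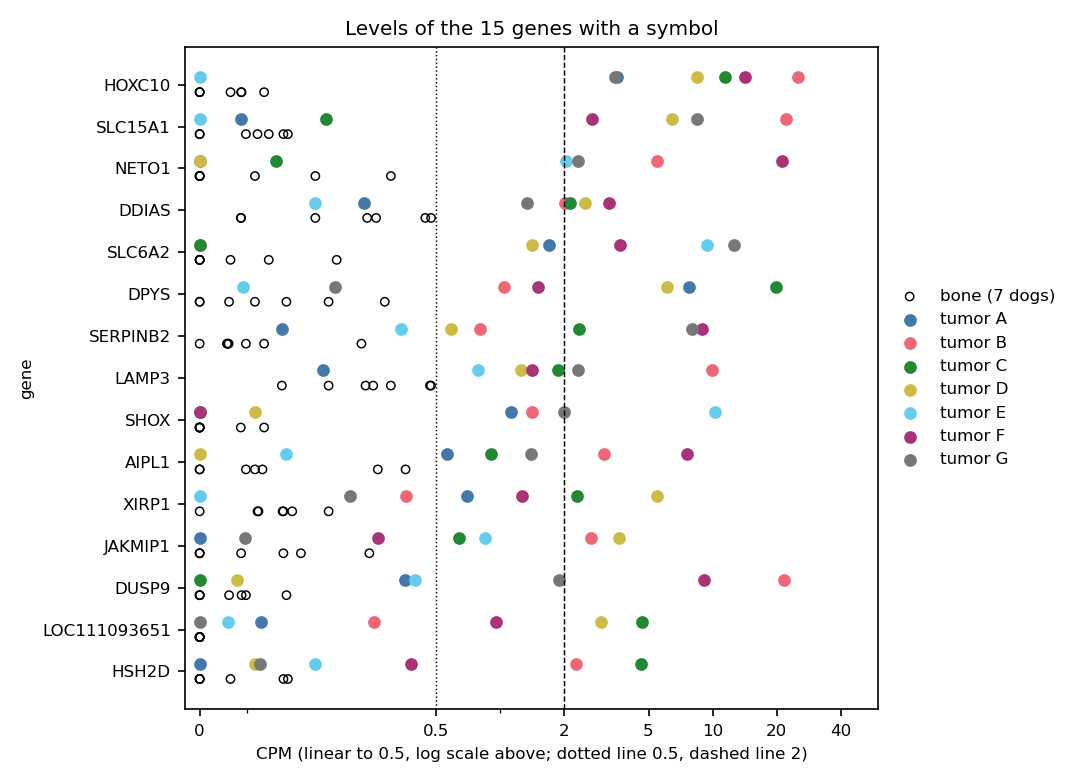
Level of the 15 genes with a symbol in CPM (horizontal axis, linear to 0.5 and logarithmic above) in the 7 bones (open circles) and the 7 tumors (filled circles, 1 colour for each dog). The dotted line marks the bone ceiling of 0.5 CPM and the dashed line the tumor floor of 2 CPM. Every gene but HOXC10 has at least 3 tumors left of the dashed line.

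By family, 6 of the 61 genes fell into 5 of 23 families searched by symbol, and 18 families held none. Among those without a member were the 7 germline and cancer-testis genes, 25 WNT, FGF, BMP and hedgehog ligands, 26 chemokines, interleukins and receptors, 30 ion channels, 37 synapse and axon genes, and 27 cartilage and bone matrix genes. The HOX genes gave 1 member in 8 (12.5%) and the solute carriers 2 in 56 (3.57%), beside 15 in 2292 (0.654%) over all genes with a symbol. No family gave more than 2 genes, and no test was made of these shares. Symbols were available for 2292 identifiers only, mainly genes that the study itself had listed as changed, and 46 of the 61 genes had none, so that these family counts cover a minority of the set.

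Of the 5 highest single values of the set, 4 belonged to genes without a symbol, all of them in tumor D, and the fifth was that of HOXC10 in tumor B. ENSCAFG00000030337 reached 38.7 CPM (985 reads) in tumor D, at least 421-fold higher than the CPM of a floor of 3 reads in the bone of the same dog, which had none. It was on in tumor F as well (4.43 CPM), lay at 1.70 in A and between 0 and 0.0635 in the other 4. ENSCAFG00000009568 reached 25.4 CPM in tumor D and 2.57 in G, and ENSCAFG00000012305 reached 23.4 in D and 3.02 in F. ENSCAFG00000018002 reached 23.2 CPM in tumor D and 6.27 in B, with the other 5 tumors at 0 to 0.222. In each of these 4 genes 1 tumor held most of the signal. Tumor D was also the tumor with the high osteoclast marker sum, 26698 CPM, and its part in the levels of these genes and of XIRP1 was not tested.

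The unnamed gene on in the most tumors, ENSCAFG00000016870, had 0 reads in all 7 bones and was on in tumors C (19.999 CPM), D (5.62), B (3.56) and F (2.06). Its CPM in tumor C (373 reads) was at least 195-fold higher than the CPM of a floor of 3 reads in the bone of dog C. ENSCAFG00000032625 (9.15 CPM in D, 6.01 in C and 3.05 in B) and ENSCAFG00000048202 (7.72 in C, 5.15 in D and 2.39 in A) were on in 3 tumors each, but their bones reached 0.497 and 0.405 CPM. With TMM scaling ENSCAFG00000048202 lay over the ceiling in bone E (13 reads) and no longer met the rule. ENSCAFG00000043997 was on in a different combination, at 13.1 CPM in tumor B, 8.82 in E and 4.09 in A, with 0 reads in C, D and F.

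Which tumors shared their genes was also uneven. The tumors of dogs B and F shared 17 genes, 51.5% of those on in B, while F had 52.5% of all 61 genes on. Of the 17, 11 were on in no other tumor, AIPL1, DUSP9 and ENSCAFG00000006836 (8.76 CPM in F and 8.09 in B) among them. Tumors C and D shared 14 genes, 70% of those on in C, while D had 42.6% of all 61 on. Of the 14, 6 were shared by C and D alone, including XIRP1, LOC111093651 and ENSCAFG00000009530 (11.1 CPM in C and 3.50 in D). Tumors D and F shared 11 genes, 4 of them alone. Tumors C and E shared none.

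The 45 genes on in exactly 2 tumors fell into 13 of the 21 possible pairs of tumors. Beside the pairs above, 3 genes each were on in tumors A and B alone, B and D alone, B and E alone, B and G alone, C and F alone, E and G alone, and F and G alone. The pairs A and D, B and C, and D and G gave 1 gene each. The Golden Retrievers A and F shared 2 genes and the Greyhounds D and G shared 3. The hindlimb tumors B and G shared 6 genes, and pairs of forelimb tumors shared from 0 (C and E) to 14 (C and D), with 11 for D and F and 10 for C and F. These counts rest on the number of genes on in each tumor, which was highest in B and F, and no test was made of them.

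**Figure D5:**
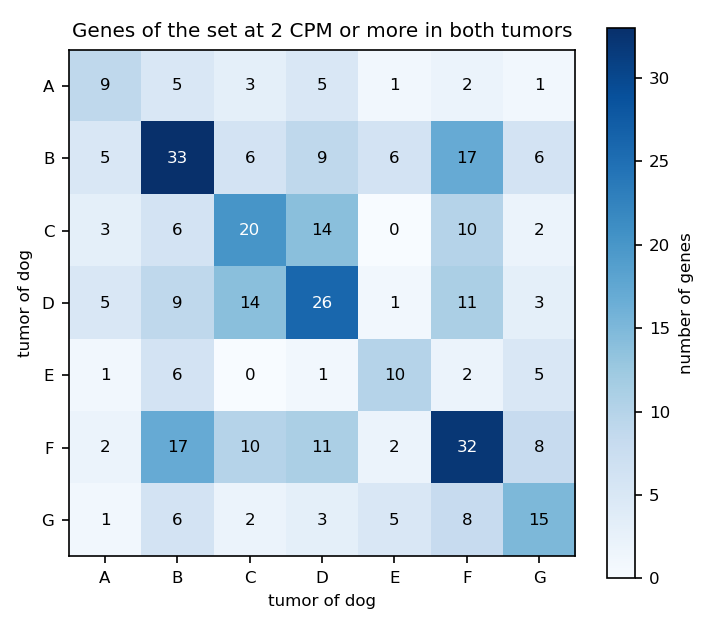
Number of the 61 genes at 2 CPM or more in both tumors of each pair (rows and columns, dogs A to G), with the number on in each tumor on the diagonal. The highest counts off the diagonal are 17 for B and F and 14 for C and D, and C and E share 0.

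The same thresholds with the tissues exchanged gave fewer genes but more widely shared ones. Under 0.5 CPM in all 7 tumors and at 2 CPM or more in at least 2 bones were 42 genes. Of these, 15 were on in exactly 2 bones, 5 in 3, 10 in 4, 5 in 5, 5 in 6 and 2 in all 7, whereas 45 of the 61 genes silent in bone were on in exactly 2 tumors. Of the 12902 genes under 0.5 CPM in every bone, 12596 were on in no tumor, 245 in 1 tumor and 61 in 2 or more. The comparison is a description of selected genes and was not tested.

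The thresholds passed through a continuum of values. ENSCAFG00000025016 and ENSCAFG00000032625 (each 0.497 CPM in their highest bone) and LAMP3, DDIAS and ENSCAFG00000041242 (each 0.490) lay just inside the bone ceiling, and ENSCAFG00000043038 (0.522), ENSCAFG00000049959 (0.527) and ENSCAFG00000013822 (0.529) just outside. By the level of the tumor ranked second, SHOX (2.0 CPM), ENSCAFG00000049890 (2.01) and ENSCAFG00000014598 (2.01) lay just inside the tumor floor, and ENSCAFG00000011130 (1.98), CERS3 (1.98) and GLP1R (1.94) just outside. Of the 13647 genes on in at least 2 tumors, 61 were at 0.5 CPM or more in no bone, 59 in exactly 1 bone and 12799 in all 7.

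How far the pattern reached a dog that had no part in choosing the genes was described by leaving out each dog in turn and applying the rule to the other 6. With 2 tumors required among 6, the rule chose 44 to 61 genes. In the bone of the dog left out, 68.5% to 96.5% of them lay under 0.5 CPM, lowest in dog B and highest in dog E. Over all genes with a read, 10921 were silent in the 6 bones without dog B and 9635 in those without dog E. Silent in all 7 bones were 9606, so in dogs B and E the chosen genes stayed silent less often than all silent genes. Bone B had the lowest RNA integrity number by the study's table and the fewest reads of the bones, and the part of either was not tested. In the tumor of the dog left out, 33.3% were on in dog B, 29.5% in F, 22.6% in D, 21.1% in C, 10.9% in G, 9.84% in A and 8.77% in E. Among all genes with a read that were silent in the other 6 bones, 0.135% (dog E) to 1.57% (dog B) were on in the tumor left out. The share with a higher level in the tumor than in the bone of that dog ran from 38.6% to 72.2% and was not computed over all genes. It was lowest in dog E, where 22 of 57 genes were higher in the tumor and 26 had 0 reads in both tissues. Such genes without a read in either tissue numbered 5 to 26 per dog.

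The study fitted tumor against bone within each dog across all genes, and the same fit with edgeR's quasi-likelihood test is given as background. With a Benjamini-Hochberg adjusted p (FDR) under 0.05, a fold over 2 and a base mean (mean normalized count) over 10, 866 of 27655 genes were called, 372 of them higher in tumor (1.35% of those tested) and 494 lower. Of the 61 genes, 10 were called, all higher, HOXC10, DPYS, SLC6A2, SLC15A1 and SERPINB2 among them. Since the same contrast chose the genes, nothing is read from this count. It was 28 without the dog as replicate block (613 of 27655 genes higher in tumor), 22 with DESeq2 (805 of 27655) and 6 without dog F (242 of 27417).

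Hindlimb and forelimb tumors were compared in a fit across all genes. The rule did not use the limb, but it used the tumor levels and so favoured genes that differ between tumors. In edgeR's quasi-likelihood test of 2 hindlimb against 5 forelimb tumors, 1 of 25822 genes was called at an FDR under 0.05 (0.00387%), and 0 of the 61. At an unadjusted p under 0.05 in that edgeR test there were 11 of the 61 genes and 1205 of all 25822 genes. DESeq2, which called 123 genes in all, called 0 of the 43 members for which it gave an adjusted p. LAMP3 had the smallest p of the set, with 9.93 and 2.32 CPM in the hindlimb tumors and 0.261 to 1.88 CPM in the forelimb tumors (log2 difference of 2.42, edgeR FDR = 0.868).

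HOXC10 averaged 14.3 CPM in the 2 hindlimb tumors (3.49 and 25.2) and 7.54 ± 5.77 CPM (SD, n = 5) in the forelimb tumors, and the groups overlapped. The number of genes of the set that were on averaged 24 in the hindlimb tumors (33 and 15) and 19.4 ± 9.99 (SD, n = 5) in the forelimb tumors, which ran from 9 to 32. Both values come from the levels that chose the genes and are a description. Limb and the bone that held the tumor cannot be told apart here. Within the Greyhounds, which had 1 tumor of each limb, HOXC10 was lower in the hindlimb tumor (3.49 CPM in G) than in the forelimb tumor (8.48 in D), the opposite order to the group means. PITX1, the hindlimb-specifying factor, was at 28.4 and 28.7 CPM in the hindlimb tumors B and G but also at 8.10 and 4.70 CPM in forelimb tumors F and A.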

How the data were processed

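Polyadenylated RNA of 7 tumors and 7 matched bones was sequenced as paired reads. Per the labels and the study's methods, the authors trimmed reads with Trimmomatic (version 0.39 in the submitters' processing notes), checked them with FastQC 0.10.1, aligned them to CanFam3.1 with HISAT2 2.2.1 and counted them with StringTie 1.3.3, and deposited raw read counts per Ensembl gene, 1 column per library. Strand and multi-mapping settings are not given in the sources used here, so genes that overlap or have a near-identical copy are uncertain. The floor used for a count of 0 is 3 reads per library and covers counting error only.

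CPM was each count divided by the column total. The members and all lists were chosen with earlier results of these data known. Symbols came from identifiers paired with symbols in the study's supplementary tables (2292 identifiers), neighbours from RefSeq (UU_Cfam_GSD_1.0, names and order only). Families and marker lists were matched by symbol.

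The fits used edgeR 4.0.16 in R 4.3.3 (TMM, quasi-likelihood test, genes with at least 1 read), with dog and tissue as terms for tumor against bone and limb alone for the 7 tumors, both tested on simulated data. DESeq2 1.42.0, another normalization, a low-count filter, the fit without the dog and leaving out each dog were the alternatives. Tumor and bone are paired because they come from the same animal. The correlation of their deviations from the tissue means over 14461 genes was 0.0831 to 0.202 within dogs, against a median of -0.0359 between dogs.

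Genes named were those on in at least 6 tumors, the 10 with the highest single-tumor CPM, all members of families with 1 or 2 members, the 3 nearest each side of each threshold, members called between limbs and neighbouring members. The other members with a symbol, those shared by particular tumors, and the HOXC, HOXA and PITX1 genes were chosen after their values were seen.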

Additional observations from a re-analysis of the deposited data

Results flagged for a closer look

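In 13 of 23 groups of 7 values, the gap from 1 tumor to its nearest neighbour, relative to the whole range, passed Dixon's 95% limit. Chance alone gives about 1 in 20 such groups, but the genes were chosen on these same tumor levels, so the limit is no test here and the values are a description. Tumor D was the extreme for ENSCAFG00000030337 (38.7 CPM), ENSCAFG00000009568 (25.4), ENSCAFG00000012305 (23.4), ENSCAFG00000018002 (23.2) and XIRP1 (5.46). Tumor B was the extreme for SLC15A1 (22.1 CPM), DUSP9 (21.7) and LAMP3 (9.93), and tumor F for NETO1 (21.2) and AIPL1 (7.59). Tumor C was the extreme for ENSCAFG00000016870 (19.999 CPM) and DPYS (19.9), and tumor E for SHOX (10.3). HOXC10, with 6 tumors on, did not pass the limit.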

How the results depend on the processing

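The number of genes in the set followed the thresholds. It was 35 with a bone ceiling of 0.25 CPM, 169 with a ceiling of 1 CPM, 172 with a tumor floor of 1 CPM, 15 with a floor of 5 CPM and 16 when 3 tumors were required. TMM-scaled CPM gave 70 genes, 51 of them shared with the 61, and leaving out a dog gave 44 to 61 genes, of which 37 to 57 were among the 61. Among 20 named members, TMM scaling changed the number of tumors on for 8, from 4 to 2 for DDIAS and by 1 tumor for the other 7. XIRP1 and HSH2D, among these 7, were left with 1 tumor and no longer met the rule. At the bone end, 3 of the 61 genes rose over 0.5 CPM in bone E and also left the set, AIPL1, ENSCAFG00000025016 and ENSCAFG00000048202. No tumor median of the 20 moved by more than the SD of the 7 tumors. That SD was larger than the median for most of them, so this check could hardly fail. In the paired tumor against bone fit, DESeq2 called 2038 genes, the fit without the replicate block 1100 and the low-count filter 1078 of 15566. Leaving out 1 dog gave 551 to 750, lowest without dog B. Members called were 28 without the replicate block, 22 with DESeq2, 4 with a low-count filter that left 8 members to test, and 6 to 11 without 1 dog, lowest without dog F. Between limbs, DESeq2 called 123 genes, the low-count filter 0, and leaving out 1 tumor 0 to 3, and members called were 0 under every alternative run. Depth limits the low end, since 2 CPM stood for as few as 37.3 reads. Why counts moved was not tested.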
